A study of Mus musculus with 6 samples.

Results

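The genes described here encode subunits of the mouse proteasome, proteins that help to assemble it, and its activators and inhibitor. They were taken from a table of FPKM values (read counts scaled by gene length and library total) as the protein-coding genes whose symbol starts with Psma to Psmg followed by a number, without Psmb8, Psmb9 and Psmb10. This gave 45 of the 23622 genes in the table, and 44 of the 13326 genes that reached a mean of 0.5 FPKM and were tested. The family was chosen by the measured difference between genotypes in this same comparison, in which its Psmd genes lay lower in the cKO libraries. The differences between genotypes in its members are therefore given as a description. Where members past a test threshold are counted, nothing is read from the counts.

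The libraries came from bone progenitor cells grown out of the bone marrow of C57BL/6 mice aged 2 weeks, as untreated primary cultures in their generation 3. The control group held 3 wild type cultures (replicates 2, 3 and 4), and the cKO group held 3 cultures labelled Ift140-/- (cko), also numbered 2, 3 and 4. Ift140 encodes a subunit of the IFT-A complex, which carries cargo inside primary cilia. Neither the Cre driver nor the deleted exons could be taken from the labels, and the series' design text calls the replicates biological.

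The proteasome degrades proteins tagged with ubiquitin. Its 20S core is a barrel of stacked rings, with outer alpha rings that gate the entrance and inner beta rings that hold the cutting sites. The 19S cap is built from a base, whose ATPases unfold the substrate and push it into the core, and a lid, which removes the ubiquitin chain, and other caps (the PA28 and PA200 activators) can take its place. In many cell types the genes of the complex are transcribed together, and the transcription factor Nfe2l1 raises them when proteasome activity falls short. Osteoblast lineage cells use the complex, among much else, to turn over Runx2 and beta-catenin.

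Library totals behind the FPKM values ran from 20158329 to 21581625 reads in the controls and from 17180101 to 28283414 in the cKO libraries. Ift140, the targeted gene, was at 2.97 ± 0.194 FPKM (SD, n = 3) in the controls and at 1.79 ± 0.0951 FPKM (SD, n = 3) in the cKO libraries, 60.2% of the control level. Xist was at 36.6 to 40.3 FPKM in the cKO libraries and at 0.119 FPKM or less in the controls, while the Y-linked Eif2s3y was at 11.6 to 15.1 FPKM in the controls and had no read in the cKO libraries. Genotype and this sex pattern therefore cannot be told apart in any comparison below. All 12 bone progenitor markers reached 0.5 FPKM in some library. Their summed level was 4538 to 5083 FPKM in the controls and 3845 to 5203 FPKM in the cKO libraries. Col1a1 took most of this sum, with a control mean of 3029 FPKM. Of the 11 tested, 1 (Bglap) was called higher at a limma adjusted p under 0.05, as were 5.04% of all genes tested (2.57% lower). Of these 11, Bglap, Spp1 and Pdgfra had all cKO values above all controls, and Col1a2 had all below. All 13 macrophage markers also reached 0.5 FPKM, with sums of 2309 to 2973 FPKM and 2859 to 3913 FPKM. Of 8 granulocyte markers 6 reached it, with sums of 5.71 to 42.6 FPKM and 85.7 to 263 FPKM, and Elane, which marks early granulocytes, was at 0 in all but 1 library. The 8 adipocyte markers summed to 195 to 242 FPKM in the controls and 382 to 402 FPKM in the cKO libraries. Of the 5 tested, 3 were called higher (Adipoq, Cebpa and Lpl). Cebpa and Lpl took most of the sum, with control means of 88.5 and 106 FPKM. Adipoq had means of 0.196 FPKM in the controls and 1.88 FPKM in the cKO libraries. Pparg and Fabp4 overlapped between genotypes, and Plin1, Lep and Cidec stayed below 0.5 FPKM and were not tested. Endothelial markers summed to 18.3 to 23.6 FPKM and 12.98 to 15.09 FPKM, with 1 of 5 called lower (Emcn). The 7 osteoclast markers summed to 74.7 to 123 FPKM and 83.6 to 101 FPKM, and of the 4 tested 2 were called higher (Mmp9 and Atp6v0d2). Ctsk took most of this sum, with means of 84.1 FPKM in the controls and 68.4 FPKM in the cKO libraries, and overlapped. The other tested markers, Acp5, Mmp9 and Atp6v0d2, had all cKO values above all controls, against 17.9% of all genes tested. Proliferation markers summed to 128 to 150 FPKM and 129 to 155 FPKM, with 0 of 10 called. The part of these cells in the results was not tested, and in such bulk cultures fewer cells of a type and less RNA per cell cannot be told apart.

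In the cKO libraries most proteasome genes lay slightly below the controls. Of the 44 members tested, 37 had a log2 difference below 0, against 50.3% of all genes tested, and 21 had all 3 cKO values below all 3 control values, against 17.8% of all genes. Only 1 member, Psmd4, had all cKO values above all control values, against 17.9% of all genes. The median log2 difference (cKO minus control, on the log2(FPKM + 1) scale) was -0.10 over the members and -0.00 over all genes. A single member, Psmc6, passed the threshold used for the whole table (an adjusted p of 0.05 in limma) in the lower direction, where 2.57% of all genes did, and 0 passed in the higher direction, where 5.04% did. At an unadjusted p under 0.05 in limma 14 members were lower and 0 higher, where 12.8% and 16.0% of all genes were, and voom called 3 lower and 0 higher, where it called 4.04% and 7.15% of all genes. Since the same contrast chose the family, nothing is read from these counts.

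**Figure D1:**
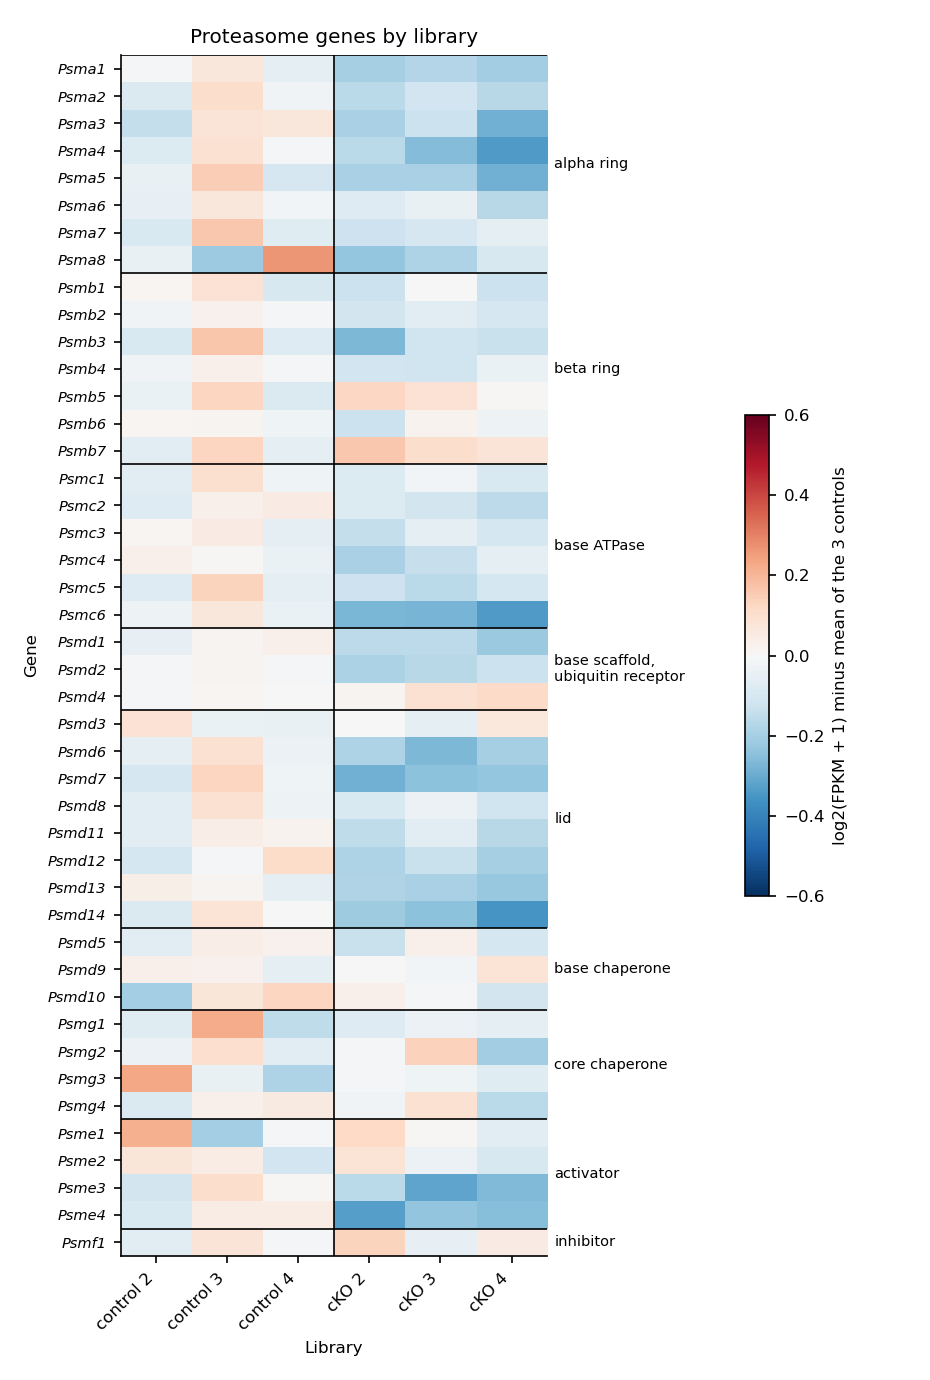
Each tile is log2(FPKM + 1) of a gene (vertical axis, ordered by role) in a library (horizontal axis) minus the mean of the 3 controls, with blue for lower and red for higher. Most alpha ring, base and lid genes are blue in all 3 cKO columns, while the column of control 3 is red for 31 members that were highest there among the controls.

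The libraries within a genotype also differed. Control 3 was the highest control for 31 of 44 members (70.5%), against 38.6% of all genes tested, and for 14 of the 15 core members tested. Library cKO 4, the deepest, was the lowest cKO library for 24 members (54.5%), against 31.9% of all genes. The summed FPKM of the members was 1596, 1727 and 1604 in controls 2, 3 and 4 and 1503, 1534 and 1492 in cKO 2, 3 and 4. Every cKO sum lay below every control sum, and control 3 stood above the other controls. Control 3 also had the lowest summed macrophage (2309 FPKM), granulocyte (5.71 FPKM) and adipocyte markers (195 FPKM) of all libraries. Its summed osteoclast markers (123 FPKM) were the highest of all libraries, but Ctsk alone made 111 FPKM of this sum. Its summed bone progenitor markers (5083 FPKM) were the highest of the controls. Among these markers, Ibsp was at 92.4 FPKM against 13.2 and 20.1 FPKM in controls 2 and 4. Runx2 was at 7.98 FPKM against 7.71 and 9.19 FPKM there. The part of these differences in the proteasome levels was not tested. Without control 3 the median over the members was -0.08 and 22 members had all cKO values below the remaining controls, against 23.7% of all genes. Of the reads recovered from the FPKM values, the members took 0.372%, 0.403% and 0.374% in the controls and 0.358%, 0.358% and 0.337% in the cKO libraries. These recovered reads lack Col1a1 and made up an uneven part of the library totals, from 93.1% in cKO 2 to 98.5% in cKO 4, so these shares depend on that denominator.

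Promoter sequence was available from RefSeq (GRCm38.p6) for 37 of the 45 members (all but Psma8, Psmb1, Psmb2, Psmb7, Psmc3, Psmd3, Psmd7 and Psmg2), as windows of 250 bases before to 50 bases after the start of the gene, and 8 motifs were searched on both strands. The stretches below are shown because Nfe2l1, the factor known for raising proteasome genes, binds antioxidant response elements, whose core is TGACNNNGC. This core was present in the windows of 6 members (16.2%), against 14.0% of 27025 genes with a window and 17.1% of the 9289 tested protein-coding genes with one. Each stretch runs 5′ to 3′ on the gene's strand with up to 20 bases on either side, fewer near the start or the window's edge, and capitals mark the match, which reads as the reverse complement where it lies on the other strand.
Psmb5 (chr14:54618014-54618062, minus strand, 47 bases before the start): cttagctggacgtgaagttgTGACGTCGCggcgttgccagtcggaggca
Psmb6 (chr11:70525328-70525356, plus strand, 9 bases before the start): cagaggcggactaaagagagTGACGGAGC
Psmc6 (chr14:45329577-45329625, plus strand, match on the other strand, 227 bases before the start): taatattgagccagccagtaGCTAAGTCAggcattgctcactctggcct
Psmd12 (chr11:107479278-107479309, plus strand, match on the other strand, 247 bases before the start): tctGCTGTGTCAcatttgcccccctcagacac
Psmd9 (chr5:123228139-123228187, plus strand, 31 bases before the start): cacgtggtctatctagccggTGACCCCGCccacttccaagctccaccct
Psme4 (chr11:30771758-30771776, plus strand, match on the other strand, 7 bases before the start): cgctgcggctGCAGCGTCA

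The core of the sites bound by ETS factors, a family of activators often found at genes that every cell uses, is GGAA, and it was searched as CCGGAAG and as GGAAGT, which overlap in CCGGAAGT. CCGGAAG was present for 14 of 37 members (37.8%), against 9.93% of all genes with a window and 20.6% of the tested protein-coding ones. GGAAGT was present for 20 members (54.1%), against 26.5% and 32.6%. The stretches below show the CCGGAAG match in 4 of the members that have it, taken from different roles. All 4 had every cKO value below every control, whereas Psma6, Psmc1, Psmd4, Psmg1 and Psmg3, which also have the match, did not.
Psmc6 (chr14:45329704-45329750, plus strand, 100 bases before the start): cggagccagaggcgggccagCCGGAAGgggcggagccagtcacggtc
Psmd2 (chr16:20651606-20651651, plus strand, match on the other strand, 26 bases before the start): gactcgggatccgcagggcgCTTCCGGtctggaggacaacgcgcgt
Psmd6 (chr14:14120964-14121010, minus strand, 45 bases before the start): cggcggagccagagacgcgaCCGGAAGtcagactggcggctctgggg
Psme4 (chr11:30771702-30771748, plus strand, 53 bases before the start): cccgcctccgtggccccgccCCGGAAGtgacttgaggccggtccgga

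CGCATGCGC, the core of the palindrome bound by NRF1 (the product of Nrf1, a factor other than Nfe2l1), was present for 2 members, Psma2 and Psmg1 (5.41%), against 4.27% of tested protein-coding genes. CCAAT was present for 13 members (35.1% against 42.8%), TATAAA for 3 (8.11% against 8.22%) and CACGTG for 3 (8.11% against 11.9%). TGACTCAGC, a fully specified form of the antioxidant response core, was present for 0 members. Among members tested, 9 of the 14 with CCGGAAG had all cKO values below all controls, against 10 of the 22 without it, and for TGACNNNGC the counts were 3 of 6 and 16 of 30. Over all genes tested this share was 17.8%. A match is a run of letters and not a shown binding site, and these counts carry no test.

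**Figure D2:**
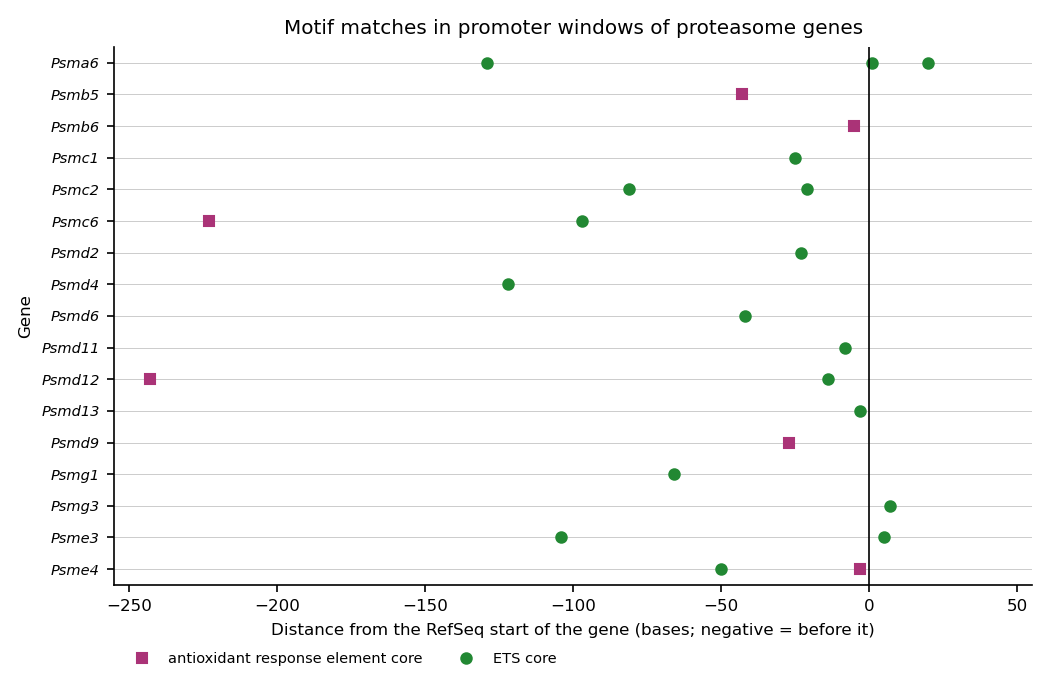
Each row is a proteasome gene with a match, and the horizontal axis is the distance in bases of the match's middle from the RefSeq start of the gene (negative before it). Squares mark TGACNNNGC and circles mark CCGGAAG, and no circle begins more than 132 bases before the start.

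The alpha ring had the most even pattern in the core. All 8 alpha members had a log2 difference below 0, with a median of -0.18, and 4 of the 8 had all cKO values below all controls, namely Psma1, Psma2, Psma4 and Psma5. The share of all genes with all cKO values below all controls, 17.8%, stands behind this count and those of the other roles. The largest difference was that of Psma4 (ENSMUSG00000032301, chr9:54950790-54958030 on GRCm38 in GENCODE vM21, the source of all gene positions here), which read 29.6, 33.5 and 31.1 FPKM in the controls (in the order 2, 3, 4, as throughout) against 27.9, 26.0 and 24.5 FPKM in the cKO libraries, a log2 difference of -0.25 ± 0.07 (SE). Its closest values were control 2 and cKO 2, which did not overlap. Psma5 had a mean of 44.5 ± 4.19 FPKM (SD, n = 3) in the controls and 37.8 ± 1.45 FPKM (SD, n = 3) in the cKO libraries. Psma6 (-0.10) and Psma7 (-0.09) lay nearest to 0 in the ring and overlapped between genotypes. Psma8, the alpha subunit of the testis form of the core, lay at 0.860 to 1.62 FPKM in all libraries, the lowest level in the ring, with 25 reads in cKO 2.

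The beta ring was mixed, and 2 of the 3 genes that encode its cutting subunits, Psmb5 and Psmb7, had a mean above that of the controls. Psmb5, the chymotrypsin-like subunit and the main target of bortezomib, was at 50.8, 57.1 and 49.1 FPKM in the controls, against 57.0, 55.5 and 52.5 FPKM in the cKO libraries. The groups overlapped, with control 3 the highest of the 6 values, and the log2 difference was 0.07 ± 0.07 (SE), or -0.07 after correction for GC content. Psmb7, the trypsin-like subunit, was at 12.8, 14.7 and 12.8 FPKM in the controls, against 15.1, 14.5 and 14.2 FPKM in the cKO libraries. Control 3 lay inside the cKO range, and the log2 difference of 0.11 was the highest of the family. Exons of Nek6 on the other strand overlap 11.8% of the exon bases of Psmb7, and since the labels name no strand setting, reads of the pair cannot be told apart there. Psmb6, the caspase-like subunit, was at 59.1, 59.2 and 57.4 FPKM in the controls, against 53.4, 59.4 and 57.3 FPKM in the cKO libraries. The groups overlapped, with cKO 2 and cKO 4 below every control and cKO 3 above them.

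The noncatalytic beta members all lay below the controls, by -0.09 for Psmb1, Psmb2 and Psmb4 and by -0.17 for Psmb3. Psmb2, Psmb3 and Psmb4 had no overlap between genotypes, as in Psmb2 with 57.4 ± 0.905 FPKM (SD, n = 3) in the controls against 53.8 ± 0.930 FPKM (SD, n = 3) in the cKO libraries. Psmb11, the beta subunit of the thymus cortex, had 1 read in cKO 2 and none in the other libraries, and was not tested.

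**Figure D3:**
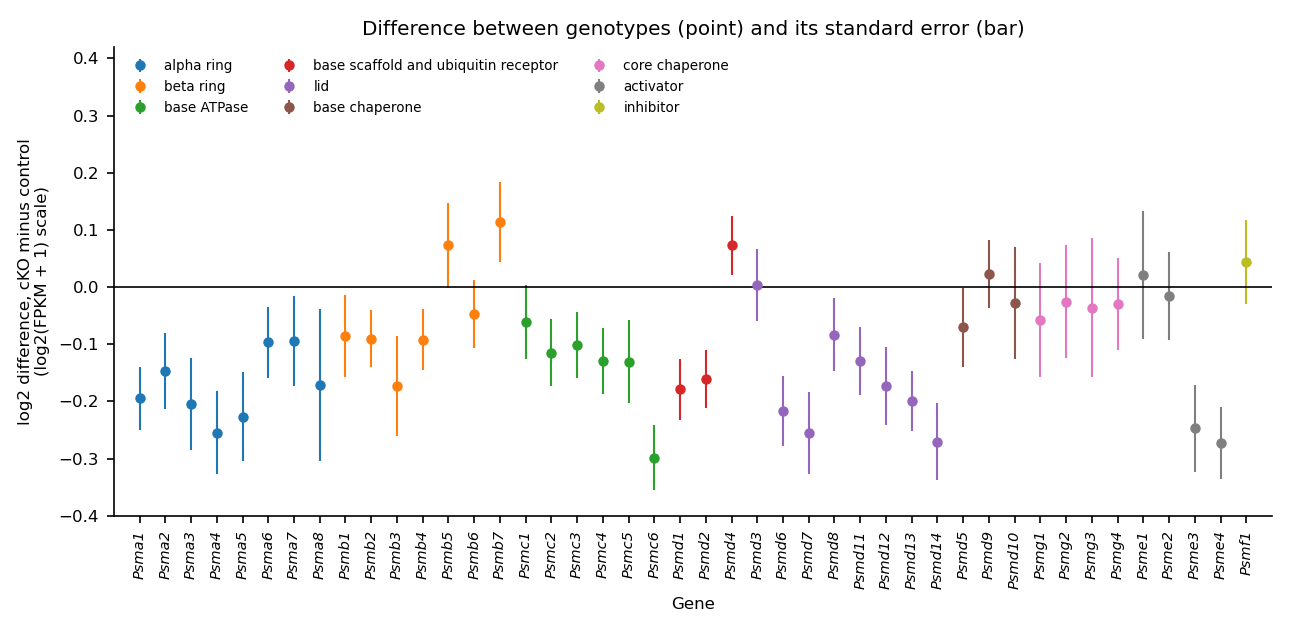
Points are the log2 difference between genotypes (cKO minus control, vertical axis, log2(FPKM + 1) scale) of the 44 members tested (horizontal axis), colored by role, and bars are the standard error. Psmc6, Psmd14 and Psme4 sit lowest, at -0.30, -0.27 and -0.27, and Psmb7 sits highest, at 0.11.

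All 6 ATPases of the base lay below the controls, with a median of -0.12, and 4 of them (Psmc2, Psmc4, Psmc5 and Psmc6) did not overlap between genotypes. Psmc6 (ENSMUSG00000021832, chr14:45329788-45349705) had the largest difference of the whole family. It was at 50.7, 54.2 and 50.4 FPKM in the controls, against 42.6, 42.5 and 40.7 FPKM in the cKO libraries. The lowest control stood well above the highest cKO library, the log2 difference was -0.30 ± 0.06 (SE) and the cKO mean was 80.9% of the control mean. Both motif cores shown above lie in its promoter window, as they do in those of Psmd12 and Psme4. The other ATPases ranged from -0.06 (Psmc1) to -0.13 (Psmc5 and Psmc4). The control means of the ATPases ran from 20.9 ± 1.05 FPKM (SD, n = 3) for Psmc2 to 90.3 ± 5.49 FPKM (SD, n = 3) for Psmc1, which at the annotated gene length would be at 70.9 FPKM, below the 80.7 FPKM of Psmc5.

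The remaining base members split in direction. Psmd1, a large scaffold, was at 15.2, 15.9 and 16.1 FPKM in the controls, against 14.0, 14.0 and 13.3 FPKM in the cKO libraries. Psmd2, the scaffold that docks ubiquitin shuttles, was at 71.8, 73.2 and 71.9 FPKM in the controls, against 63.3, 64.4 and 66.1 FPKM in the cKO libraries. In both genes the groups did not overlap, with log2 differences of -0.18 and -0.16. Psmd4, which holds the ubiquitin chain, was at 29.4, 29.9 and 29.7 FPKM in the controls, against 30.0, 31.7 and 32.2 FPKM in the cKO libraries. It was the member in which all cKO values lay above all controls, by a log2 difference of 0.07 ± 0.05 (SE), although cKO 2 and control 3 were nearly equal.

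Of the 8 lid members 7 lay below the controls, with a median of -0.19, and 6 did not overlap between genotypes. Psmd14 (ENSMUSG00000026914, chr2:61711694-61800376), the deubiquitinase that cuts the chain from the substrate, was at 20.5, 23.1 and 21.9 FPKM in the controls, against 18.7, 18.3 and 16.9 FPKM in the cKO libraries, a log2 difference of -0.27 ± 0.07 (SE). Psmd7, the inactive partner of Psmd14 in the lid, was at 62.9, 74.0 and 66.3 FPKM in the controls, against 55.1, 56.9 and 57.4 FPKM in the cKO libraries, a log2 difference of -0.26 ± 0.07 (SE). This pair had the largest differences in the lid, with cKO means of 82.1% and 83.4% of the control means.

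Psmd6 was at 30.7, 34.0 and 31.1 FPKM in the controls, against 28.0, 26.3 and 27.7 FPKM in the cKO libraries, a log2 difference of -0.22. Psmd13 was at 29.9, 29.5 and 28.1 FPKM in the controls, against 25.6, 25.4 and 24.8 FPKM in the cKO libraries, a log2 difference of -0.20. In both of these structural subunits of the lid all cKO values lay below all controls, and exons of Sirt3 on the other strand overlap 10.1% of the exon bases of Psmd13. Psmd12 was at 23.4, 25.1 and 27.4 FPKM in the controls, against 22.1, 22.9 and 21.9 FPKM in the cKO libraries, and Psmd11 was at 9.48, 10.3 and 10.1 FPKM and at 8.86, 9.45 and 8.77 FPKM. In Psmd11 control 2 and cKO 3 were nearly equal, so the gap between the groups was narrow. Psmd8 was at 87.8, 97.7 and 89.9 FPKM in the controls, against 85.9, 89.5 and 84.2 FPKM in the cKO libraries. Psmd3 was at 26.8, 24.4 and 24.3 FPKM in the controls, against 25.2, 24.2 and 26.3 FPKM in the cKO libraries. Both of these overlapped between genotypes, and Psmd3 had a log2 difference of 0.00, or -0.11 after correction for GC content.

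**Figure D4:**
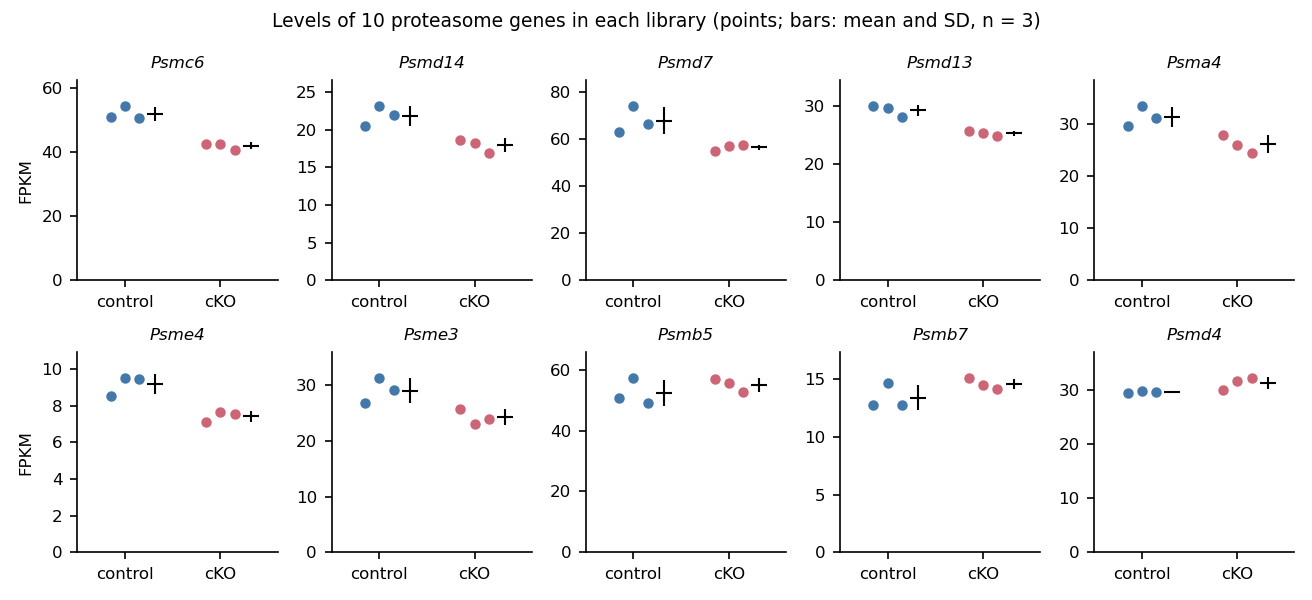
Points are FPKM (vertical axes, starting at 0) in the 3 control and 3 cKO libraries for 10 members, and crosses are the mean and SD (n = 3). In Psmc6, Psmd14, Psmd7, Psmd13, Psma4, Psme4 and Psme3 all cKO points lie below all control points, while in Psmb5 and Psmb7 the groups overlap.

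Among the cap genes of the family, the 17 base and lid members had a median of -0.13. Of these, 15 lay below 0, and 12 had all cKO values below the controls. The cap subunits Adrm1 and Sem1 fall outside the symbol rule and are not counted here. Adrm1 had a log2 difference of 0.19 with all cKO values above all controls. Sem1 had -0.12 and overlapped between genotypes. The 15 core genes tested had a median of -0.10, with 13 below 0 and 7 whose cKO values all lay below the controls. The summed FPKM of the 17 cap members divided by that of the core genes was 1.07, 1.05 and 1.08 in the controls. In the cKO libraries it was 1.04, 1.03 and 1.06. Control 3 and cKO 4 overlapped in this ratio.

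The genes for assembly factors differed little between genotypes. None of the 7 chaperone genes had groups without overlap, and their median was -0.03. Psmd5, which binds ATPases of the base during assembly, was at 4.44, 4.84 and 4.77 FPKM in the controls, against 4.18, 4.80 and 4.27 FPKM in the cKO libraries. Psmd9 was at 5.68, 5.66 and 5.29 FPKM in the controls, against 5.56, 5.46 and 5.93 FPKM in the cKO libraries, and exons of Gm26745 on the other strand overlap 25.5% of its exon bases. Psmd10, known as gankyrin, lies on the X chromosome and was at 10.3, 12.7 and 13.2 FPKM in the controls, against 12.3, 12.0 and 11.1 FPKM in the cKO libraries. All 3 base chaperones overlapped between genotypes. The core chaperones Psmg1, Psmg2 and Psmg4 lay at 9.35 to 13.5 FPKM in all libraries, with cKO means of 95.1%, 98.5% and 98.0% of the control means. Psmg3, their partner, lay at 0.632 to 1.18 FPKM, the lowest level of the members tested by control mean. The sign of these differences was not stable, since the median of the base chaperones was -0.03 as deposited and 0.01 after correction for GC content, and that of the core chaperones was -0.03 and, with library weights, 0.05.

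The 4 activator genes differed among themselves. Psme4 (ENSMUSG00000040850, chr11:30771726-30880361), the PA200 cap, was at 8.56, 9.50 and 9.49 FPKM in the controls, against 7.10, 7.64 and 7.53 FPKM in the cKO libraries, a log2 difference of -0.27 ± 0.06 (SE). Psme3, the nuclear PA28 gamma, was at 29.0 ± 2.25 FPKM (SD, n = 3) in the controls and 24.3 ± 1.39 FPKM (SD, n = 3) in the cKO libraries, a log2 difference of -0.25 ± 0.08 (SE). Neither gene overlapped between genotypes. Psme1 and Psme2, the interferon-inducible PA28 alpha and beta, had log2 differences of 0.02 and -0.02, overlapped between genotypes, and had values of 14.5 to 19.7 FPKM and 25.4 to 29.3 FPKM. Psme2b, a copy of Psme2 with 1 exon that can share its reads, was at 6.23 ± 0.563 FPKM (SD, n = 3) in the controls and 6.59 ± 1.62 FPKM (SD, n = 3) in the cKO libraries. Psmf1, the inhibitor PI31, was at 4.44 to 5.02 FPKM in the controls and 4.51 to 5.26 FPKM in the cKO libraries.

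Most of the members tested were expressed at high levels, a feature that the selection had not used. Their median mean level lay at percentile 83.9 of the 11750 protein-coding genes tested, and 30 of the 44 lay above percentile 75. Their median spread within a genotype was 0.075 on the log2 scale, against 0.099 over those genes. Their median GC content was 49.6% against 49.8%, and they lay on 16 chromosomes. A coding gene starting within 1000 bases in the opposite direction was annotated for 8 of them (18.2%), against 10.2% of those genes, among them Tbp beside Psmb1 and Mrpl32 beside Psma2. By control mean, Psmb1 (92.5 FPKM), Psmd8 (91.8 FPKM), Psmc1 (90.3 FPKM) and Psma2 (89.5 FPKM) headed the order, each with an SD of 5.19 FPKM or more that spans the steps between them. These levels depend on the gene length behind the FPKM, which equalled the exon union of GENCODE vM21 (GRCm38) for 31 of 45 members. For Psmb1 it was 1036 bases against 4595, for Psma2 944 against 3673 and for Psmc1 1518 against 1933. At the annotated lengths their control means would be 20.9, 23.0 and 70.9 FPKM, so that of these 4 Psmd8 alone would keep its level. Comparisons between libraries of the same gene do not depend on this length.

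The catalytic subunits of the immunoproteasome, an interferon-inducible form of the core, replace Psmb5, Psmb6 and Psmb7 and were compared as genes outside the family. None of these 3 genes passed the threshold in limma. Psmb9 was at 2.41, 2.08 and 1.76 FPKM in the controls, against 3.71, 3.10 and 2.70 FPKM in the cKO libraries, a log2 difference of 0.43 ± 0.12 (SE) with a limma adjusted p of 0.0716, higher in 3 of 3 cKO libraries. Psmb10 was at 20.1 ± 3.08 FPKM (SD, n = 3) in the controls and 22.7 ± 0.577 FPKM (SD, n = 3) in the cKO libraries, with a limma adjusted p of 0.308. Psmb8 was at 4.25 ± 1.21 FPKM (SD, n = 3) and 4.85 ± 0.505 FPKM (SD, n = 3), with a limma adjusted p of 0.506. At an unadjusted p under 0.05 limma counted 1 of them as higher, and voom called 0. The summed granulocyte markers were also higher in the cKO libraries (85.7 to 263 FPKM against 5.71 to 42.6 FPKM), the summed macrophage markers overlapped (2859 to 3913 FPKM against 2309 to 2973 FPKM), and the part of those cells in the levels of these genes was not tested.

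Among 11 other proteins that belong to, bind or serve the proteasome, 1 gene was higher and 0 were lower in limma. At an unadjusted p under 0.05 in limma, 1 was higher and 2 lower. Akirin2, which brings proteasomes into the nucleus, rose from 39.2, 33.1 and 33.0 FPKM in the controls to 45.2, 48.6 and 59.5 FPKM in the cKO libraries, a log2 difference of 0.52 ± 0.12 (SE) with a limma adjusted p of 0.0466. All cKO values lay above all controls, and cKO 4 was the highest. Of the 6 genes for ubiquitin and its activating enzymes 0 passed in limma, 2 were lower and 0 higher at an unadjusted p under 0.05, and voom called 1 lower, Rps27a. The shares of all genes at that unadjusted p, 12.8% lower and 16.0% higher, stand behind this count and those of the other lists. At the adjusted threshold in limma the shares were 2.57% lower and 5.04% higher. Rps27a, a ubiquitin precursor fused to a ribosomal protein, was at 122 ± 7.04 FPKM (SD, n = 3) in the controls and 102 ± 2.42 FPKM (SD, n = 3) in the cKO libraries, with a limma adjusted p of 0.0602. Uba6, an activating enzyme, was at 4.24 ± 0.432 FPKM (SD, n = 3) and 3.50 ± 0.257 FPKM (SD, n = 3), with a limma adjusted p of 0.146. Of the 10 genes for ubiquitin shuttles and for the p97 unfoldase with its cofactors 0 passed in limma or in voom, while 2 were higher and 5 lower at an unadjusted p under 0.05. Faf2, a p97 cofactor at the endoplasmic reticulum, had a log2 difference of -0.18 ± 0.05 (SE) and a limma adjusted p of 0.0724, and the shuttle Ubqln2 had 0.19 ± 0.06 (SE) and 0.0814.

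Of the 9 genes for the transcriptional control of the proteasome 0 passed in limma, 2 were higher and 1 lower at an unadjusted p under 0.05, and voom called 1 lower, Nfe2l1. Nfe2l1 was at 68.5, 81.9 and 71.9 FPKM in the controls, against 53.6, 58.5 and 62.1 FPKM in the cKO libraries, a log2 difference of -0.34 ± 0.09 (SE) with a limma adjusted p of 0.0637. The groups did not overlap. Control 3 was the highest control for this gene, as for 31 of the 44 members tested, against 38.6% of all genes. Library cKO 4 was its highest cKO library, whereas it was the lowest cKO library for 24 members. The part of Nfe2l1 in the levels of the members was not tested. Mafg, a small Maf partner of Nfe2l1, was at 20.6 ± 0.638 FPKM (SD, n = 3) in the controls and 23.2 ± 1.28 FPKM (SD, n = 3) in the cKO libraries, with a limma adjusted p of 0.136. Nfe2l2, its relative in the oxidative stress response, was at 18.1 ± 1.63 FPKM (SD, n = 3) and 17.9 ± 1.17 FPKM (SD, n = 3).

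Genes of cytosolic protein folding were measured beside the proteasome. Of 7 heat shock response genes, 1 fell and 0 rose in limma, 3 were lower and 1 higher at an unadjusted p under 0.05, and voom called 2 lower. The 1 higher was Hspa1a, an inducible HSP70 named here after its values were seen, with all cKO values above all controls, a log2 difference of 0.59 ± 0.19 (SE) and a limma adjusted p of 0.102. Hsp90aa1, the inducible cytosolic HSP90, fell from 72.3, 72.3 and 79.6 FPKM in the controls to 60.2, 58.9 and 57.1 FPKM in the cKO libraries, a log2 difference of -0.34 ± 0.06 (SE) with a limma adjusted p of 0.0275. Of the 8 genes of the CCT chaperonin, the ring that folds actin and tubulin, 3 fell in limma, against 2.57% of all genes. At an unadjusted p under 0.05 in limma 7 were lower, against 12.8% of all genes. All 8 had every cKO value below every control, against 17.8% of all genes, with a median of -0.20. Cct8 fell from 73.5, 84.9 and 78.5 FPKM in the controls to 62.3, 60.2 and 58.8 FPKM in the cKO libraries, with a limma adjusted p of 0.0275. Tcp1 and Cct2 also fell, by 0.31 and 0.26 on the log2 scale, with limma adjusted p values of 0.0280 and 0.0417. These calls depend on single libraries. Of the 5 genes, 0 passed without control 4 or without any 1 of the cKO libraries, 3 passed without control 2 (Akirin2, Hsp90aa1 and Cct8) and 3 without control 3 (Hsp90aa1, Tcp1 and Cct8).

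**Figure D5:**
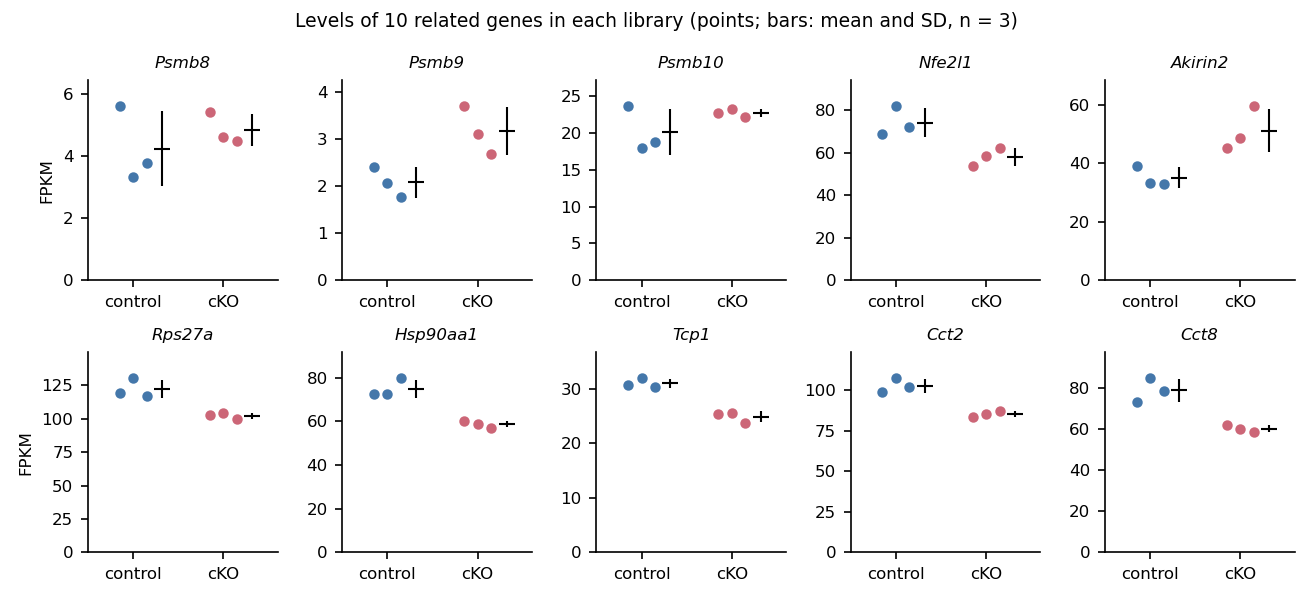
Points are FPKM (vertical axes, starting at 0) in the 3 control and 3 cKO libraries for 10 genes outside the family, and crosses are the mean and SD (n = 3). All cKO points lie above all control points in Psmb9 and Akirin2 and below them in Nfe2l1, Rps27a, Hsp90aa1, Tcp1, Cct2 and Cct8.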

How the data were processed

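RNA selected with poly-T beads from 3 µg of total RNA per culture went into NEBNext Ultra libraries and was sequenced, per the labels' protocols. The authors deposited FPKM, and the submitters' processing notes list HTSeq 0.6.0 and DESeq2 1.10.1 without saying what each was used for. No label names the aligner, build, annotation or strand setting. The members, lists and tests were chosen with earlier results of these data known.

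Genes averaging 0.5 FPKM or more were compared as log2(FPKM + 1) with limma 3.58.1 (R 4.3.3), using an intensity trend, no covariate and Benjamini-Hochberg adjustment over 13326 genes at 0.05. A fold on this scale understates that of low genes. From the steps between low values, whole reads could be recovered for 23425 of 23427 genes (99.99%, tolerance 1e-06), summing to 93.1% to 98.5% of the library totals. Col1a1 was not recovered, so voom and the read shares leave it out. On the recovered reads voom called 953 genes higher and 538 lower. GENCODE vM21 (GRCm38) supplied symbols, exons and GC content and held 99.5% of the identifiers, and promoter windows from RefSeq. All 6 values are given for members past the threshold, the 3 largest differences each way, Psmb5 to Psmb7 and the Psmd genes, and means or ranges for others. Psma4 was added with all values after they were seen. Outside the family each list gives the genes that passed, or the 2 with the smallest p. Psmb8, Nfe2l2 and Psme2b were added after their values were seen. Paaf1 was not analysed here. The recovery and the fit were tested on simulated data. Python 3.11.15, numpy 2.4.6, pandas 2.3.3 and matplotlib 3.10.9 were used. Alternatives were other pseudocounts, filters, scalings, priors, library weights, a replicate block, a GC correction (loess, span 0.5), voom and leaving out each library. Intervals between replicates are spreads between these cultures.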

Additional observations from a re-analysis of the deposited data

How the results depend on the processing

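The number of members past the threshold in the lower direction was 1 as reported, and it was 2 with a minimum mean of 1 FPKM, 7 with quantile normalization, 4 with median centring, 2 with a robust prior, 12 with library weights, 2 with a GC correction and 3 with voom on recovered reads. Without 1 library each it ran from 0 to 1, and Psmc6 lost its call without control 2, control 4 or any 1 of the cKO libraries. The median over the members moved from -0.10 to -0.16 with quantile normalization and kept its sign in every alternative run. Related genes that passed numbered 1 higher and 4 lower. The higher count was 0 with no filter, median centring, no intensity trend or the GC correction, 4 with library weights and 0 to 1 without 1 library. The lower count was 9 with quantile normalization, 19 with library weights, 7 with voom and 0 to 7 without 1 library. Over all genes 672 were higher and 342 lower. These counts were 327 and 184 with no filter and 1765 and 1378 with library weights, 44 to 622 and 25 to 369 without 1 library, and 348 higher with the GC correction. Quantile normalization gave 560 lower and voom 538. The share of calls that were higher was 66.3% as reported, 52.1% with quantile normalization, 55.1% with median centring, 56.2% with library weights and 46.6% with the GC correction. The cause of these shifts was not tested.

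Same-numbered libraries had correlations of -0.04, -0.05 and 0.03 between their deviations, and the other pairs -0.04 to 0.09. Deviations were taken from each group's own mean, so whether the numbers pair the libraries cannot be told from these values. With the replicate block 42 genes were higher and 22 lower, 0 members were lower, and 0 related genes were higher and 0 lower. The GC correction with replicate block gave 1 higher and 2 lower over all genes, 0 members, and 0 related genes either way. With 3 libraries a genotype, differences as small as those of most members lie near the spread between replicates, and genotype and sex pattern cannot be told apart.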
